A study of Mus musculus with 6 samples.

Results

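Phosphorylated Smad2 (pSmad2) was mapped by ChIP-Seq around 8 genes of the Wnt pathway, namely Axin2, Lef1, Tcf7, Tcf7l1, Wnt3, Sp5, Dkk1 and Nkd1, which were chosen by name out of 22350 protein-coding genes. Each gene was examined within its mm9 bounds and 20 kb on each side. The cells were E14 TG2A, a mouse embryonic stem (ES) cell line. All of them first spent 6 h in serum-free KSR medium with 10 uM SB, an inhibitor of the Nodal/Activin type I receptor kinases. They were then held for 18 h in 25 ng/ml Activin (high signaling), in DMSO vehicle diluted 1 in 5000 (the signaling of the cells themselves) or in 10 uM SB (low signaling). Each of the 3 treatments gave 1 ChIP library and 1 input library, so no replicate was available and expression was not measured in these libraries. Every p-value below (an exact binomial test, adjusted over all features) therefore compares the tags of 2 libraries rather than treatments, and every interval (95%, exact Clopper-Pearson) covers counting error only.

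Wnt ligands bind Frizzled and Lrp receptors on the cell surface and stop a cytoplasmic destruction complex, built on Axin, from degrading beta-catenin. The stabilized beta-catenin enters the nucleus and joins the Tcf/Lef factors on DNA, where it switches on targets that include feedback inhibitors of the pathway. Nodal/Activin receptors phosphorylate Smad2 and Smad3, which bind DNA with Smad4 and partner factors. Both pathways are known for their joint role in forming the primitive streak and mesendoderm, and the Wnt pathway also acts on self-renewal of ES cells. Wnt3 is a ligand needed for gastrulation. Lef1, Tcf7 and Tcf7l1 are the DNA-binding partners of beta-catenin, with Tcf7l1 acting mainly as a repressor in ES cells. Axin2, Nkd1, Dkk1 and Sp5 are common Wnt targets. Axin2 acts in the destruction complex, Nkd1 binds Dishevelled, Dkk1 is a secreted inhibitor that binds Lrp receptors, and Sp5 is a zinc finger transcription factor.

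After tags of the same position and strand were counted once, the ChIP libraries held 10537724 tags (Activin), 9713869 tags (DMSO) and 7805150 tags (SB), and the inputs held between 9786787 and 11913742. Repeated tags made up 19.9% to 24.6% of the ChIP libraries and 5.64% to 6.94% of the inputs. The 3 deposited peak lists were joined into 12212 regions, which held 3.06% to 3.8% of the ChIP tags and 1.36% to 1.55% of the input tags. A region exists only because at least 1 list named it, so a region had to be high over input in each library whose list named it, and a ratio of such a library to one whose list did not name the region holds that choice.

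pSmad2 positions were listed near 4 of the 8 genes. Wnt3, Lef1, Tcf7 and Tcf7l1 had them, with 1 region each at Wnt3, Lef1 and Tcf7 and 4 regions at Tcf7l1. Axin2, Nkd1, Dkk1 and Sp5 had none, and still none when the search was widened to 50 kb on each side. By list, 3 of the 8 genes had a position in the Activin list, 2 in the DMSO list and 1 in the SB list. Over all coding genes the shares were 23.3% for the Activin list, 28.8% for the DMSO list, 24.7% for the SB list and 41.5% for any list. The median window was 77.3 kb long for the 8 genes and 55.4 kb for all coding genes, and the largest window, that of Tcf7l1 (203 kb), held 4 of the 7 regions. None of the 7 regions was named by all 3 lists, which was so of 1100 of the 12212 regions, and 6 of the 7 were named by 1 list.

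**Figure D1:**
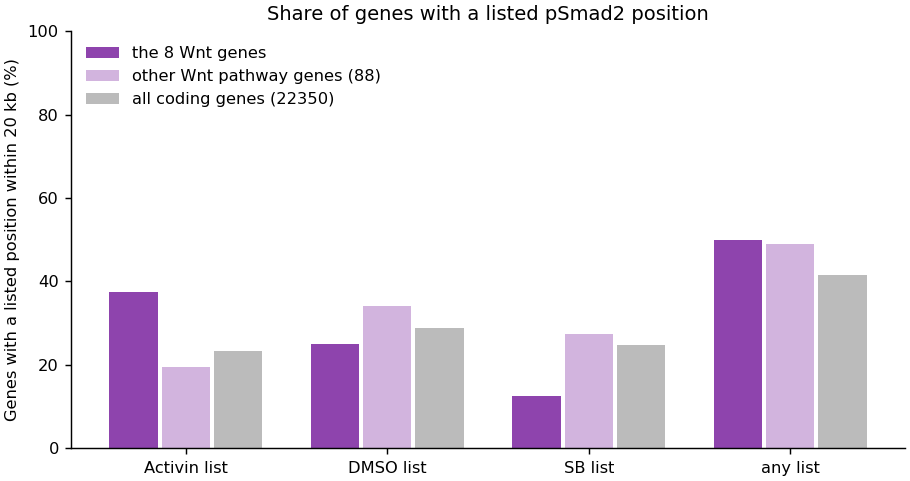
Share of genes (%) with at least 1 listed pSmad2 position within 20 kb, for each peak list and for any list, with bars for the 8 Wnt genes, the 88 other Wnt pathway genes and all 22350 coding genes. The bar of the 8 genes stands at 3 genes for the Activin list, 2 for the DMSO list, 1 for the SB list and 4 for any list.

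Wnt3 carried the region with the highest pileup of the 7, upstream of the gene and with Wnt3 as its nearest coding start. The gene lies at chr11:103635464-103679271 on the plus strand, and the region at chr11:103632153-103632807 lay outside coding genes, with its highest pileup 2.98 kb before the gene start. It was named by the Activin list with 24 tags and by the DMSO list with 18 tags, and not by the SB list. The 300 bases around its highest pileup (mm9, chr11:103632333-103632632, plus strand) are shown because they carry the clearest pSmad2 summit of the 8 genes. Capitals mark CAGAC, the Smad binding element, and AATNNACA, the core recognized by the Smad partner Foxh1, on either strand.
Wnt3 upstream site: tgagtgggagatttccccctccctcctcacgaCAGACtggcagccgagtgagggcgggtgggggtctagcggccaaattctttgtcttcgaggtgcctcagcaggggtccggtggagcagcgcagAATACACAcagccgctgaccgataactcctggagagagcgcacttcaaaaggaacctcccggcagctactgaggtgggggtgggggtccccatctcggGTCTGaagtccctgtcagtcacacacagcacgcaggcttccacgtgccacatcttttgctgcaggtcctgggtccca
The stretch held 2 copies of CAGAC and 1 of AATNNACA, and no copy of the Tcf/Lef words CTTTGAT and CTTTGAA.

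At this Wnt3 region the Activin ChIP held 23 tags, the DMSO ChIP 20 tags and the SB ChIP 6 tags, while the inputs held 9, 7 and 5 tags in the same order. In scaled tags (tags per 10000000 kept tags of the library), these are 21.8, 20.6 and 7.69 in the ChIP libraries and 8.26, 5.88 and 5.11 in the inputs. The Activin and DMSO libraries, whose lists named the region, stood above their inputs, and the SB library, whose list did not, stood near its own, so this order is the one by which the region was chosen. ChIP exceeded input 2.64-fold in Activin (1.18 to 6.49) and 3.50-fold in DMSO (1.42 to 9.81), the excess on which both lists rest, and 1.5-fold in SB (0.383 to 6.23). Activin over SB was 2.84 (1.12 to 8.52) with an exact adjusted p of 0.0906, above the 0.05 threshold. SB over DMSO was 0.373 (0.123 to 0.964, exact adjusted p = 0.129), and Activin over DMSO was 1.06 (0.557 to 2.03, exact adjusted p = 0.956). With repeated tags counted, Activin over SB became 3.71 (exact adjusted p = 0.00903) and SB over DMSO 0.283 (exact adjusted p = 0.0203). Activin over SB also passed the threshold with scaling by GC content (3.43, exact adjusted p = 0.0491), with tags moved 50 bp (4.26, exact adjusted p = 0.0247) and in a 400 bp window (4.07, exact adjusted p = 0.0451), and it did not with scaling by tags outside regions (2.82, exact adjusted p = 0.0897). The 400 bp window was centered on the highest scaled pileup of the 3 ChIP libraries, here that of Activin. Its ratio to SB is therefore raised by that choice of place. The 200 bp bin at the summit held 17 Activin, 11 DMSO and 2 SB tags, against 4, 1 and 2 input tags. That bin lies at the Activin pileup too, so the same choice of place raises its Activin count over SB. It was not called between any pair of ChIP libraries. By the tags of the 3 ChIP libraries, the regions most like the Wnt3 region among all 12212 lay nearest to Ssx2ip, Cdnf and Gja1. They held 23, 21 and 6 tags (Ssx2ip), 21, 19 and 6 tags (Cdnf) and 23, 18 and 6 tags (Gja1). Their Euclidean distances from the Wnt3 region were 0.0687, 0.147 and 0.148 in log2 scaled tags.

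**Figure D2:**
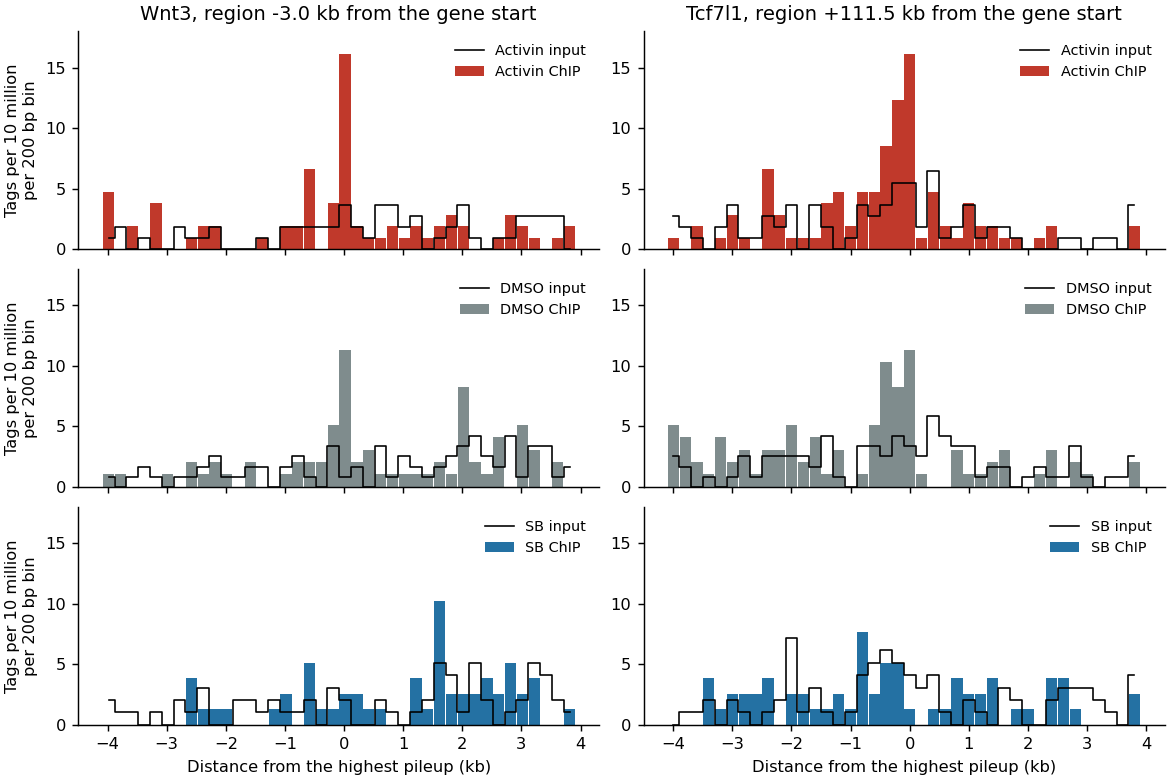
ChIP tags (bars) and input tags (line) per 10000000 kept tags in 200 bp bins, against the distance in kb from the highest pileup, for the Wnt3 upstream region (left) and the Tcf7l1 intronic region (right), with 1 row for each treatment. At Wnt3 the central bin holds 17 Activin, 11 DMSO and 2 SB tags, and at Tcf7l1 it holds 17, 11 and 1. Both bins lie at the highest pileup, that of Activin, which raises Activin over SB there. Neither was called between ChIP libraries among bins of at least 12 tags. Among bins of at least 20 tags the Tcf7l1 bin was called (Activin against SB).

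Tcf7l1 had the only region of the 7 that was called between ChIP libraries. The gene lies at chr6:72576372-72739248 on the minus strand, and the region at chr6:72627504-72628388 sits in an intron, 112 kb downstream of the gene start (intron 1 or 3, by transcript). It was named by the DMSO list alone, with 35 tags, and its nearest coding start was that of Gm15401, 48.4 kb away. The Activin and SB libraries, which did not choose it, can therefore be set against each other here without that selection. Its 300 central bases (mm9, chr6:72627551-72627850, plus strand) are shown because the region carries the call, with CAGAC in capitals.
Tcf7l1 intronic site: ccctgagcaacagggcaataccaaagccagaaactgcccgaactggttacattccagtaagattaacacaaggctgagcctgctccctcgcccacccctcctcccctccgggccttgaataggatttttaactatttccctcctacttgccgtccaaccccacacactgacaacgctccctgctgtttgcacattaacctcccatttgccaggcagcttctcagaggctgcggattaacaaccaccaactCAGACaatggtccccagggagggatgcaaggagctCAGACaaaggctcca
It held 2 copies of CAGAC and none of the other words searched.

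In this Tcf7l1 region the Activin ChIP held 44 tags, the DMSO ChIP 34 tags and the SB ChIP 11 tags, and the inputs held 19, 18 and 20 tags. In scaled tags the ChIP levels were 41.8, 35 and 14.1 and the input levels 17.4, 15.1 and 20.4. Activin, which had no listed peak there, was at the level of DMSO, and SB was no higher than its own input. Activin over SB was 2.96 (1.51 to 6.36, exact adjusted p = 0.00819). Across all regions, 17.7% were called between Activin and SB, 4.85% as higher in Activin (592 higher and 1575 lower), so 1 call among 7 regions does not set these genes apart. With scaling by GC content that split was 493 higher and 658 lower, and the Tcf7l1 ratio was 3.44 (1.75 to 7.40, exact adjusted p = 0.00319). SB over DMSO was 0.403 (0.184 to 0.814, exact adjusted p = 0.0607), and with scaling by GC content it was 0.337 (exact adjusted p = 0.0358). Activin over DMSO was 1.19 (0.745 to 1.92, exact adjusted p = 0.671). ChIP over input was 2.39 in Activin (exact adjusted p = 0.00418) and 0.690 in SB (exact adjusted p = 0.981). In DMSO it was 2.32 (exact adjusted p = 0.00764), the excess on which the DMSO list rests. The inputs at this region were not called between any pair of treatments (exact adjusted p = 1.0 each).

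The region just inside the Tcf7l1 gene start had nearly equal levels in Activin and SB. It lay at chr6:72737151-72738073, 1.62 kb into the gene and also intronic, and it was named by the Activin list alone, with 31 tags. The Activin ChIP held 32 tags, the DMSO ChIP 19 tags and the SB ChIP 21 tags, against 10, 17 and 12 input tags. SB was here at 26.9 scaled tags, close to the 30.4 of Activin, and Activin over SB was 1.13 (0.631 to 2.06, exact adjusted p = 0.920). Activin over DMSO was 1.55 (0.854 to 2.90, exact adjusted p = 0.326). ChIP over input was 3.31 in Activin (exact adjusted p = 0.00230), the excess on which its list rests. In SB it was 2.19 (1.03 to 4.89, exact adjusted p = 0.0504), called with repeated tags counted (exact adjusted p = 0.0356).

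The other Tcf7l1 regions lay past the 3' end of the gene, at the neighbor Tgoln1, which encodes a protein of the trans-Golgi network. The region at chr6:72566860-72567354 was 9.22 kb past the end of Tcf7l1 and its highest pileup was 163 bp before the start of Tgoln1. It held 4 Activin, 14 DMSO and 8 SB tags, against 10, 5 and 7 input tags, and was named by the DMSO list with 14 tags. Activin over DMSO was 0.263 (0.0631 to 0.839, exact adjusted p = 0.0916). The region at chr6:72559758-72560104, 16.4 kb past the end of Tcf7l1, had its highest pileup in an untranslated exon of Tgoln1 and was named by the DMSO list with 10 tags. It held 8 Activin, 11 DMSO and 2 SB tags, against 6, 4 and 2 input tags, with SB over DMSO at 0.226 (0.0244 to 1.04, exact adjusted p = 0.162). Neither region was called between ChIP libraries.

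Lef1 carried 1 listed region, and it lay in another gene. Lef1 lies at chr3:130813389-130927274 on the plus strand. The region at chr3:130939507-130940024 was 12.5 kb past its end, in intron 6 of Hadh, which encodes a mitochondrial enzyme of fatty acid oxidation. It was named by the Activin list alone, with 17 tags, and the Activin, DMSO and SB ChIP libraries held 17, 13 and 5 tags there, against 4, 8 and 7 input tags. In scaled tags the ChIP levels were 16.1, 13.4 and 6.41. Activin over SB was 2.52 (0.892 to 8.73, exact adjusted p = 0.212), and 3.27 with repeated tags counted (exact adjusted p = 0.0446). The region had to be high in Activin to be listed, so both ratios hold that choice. ChIP over input was 4.39 in Activin (exact adjusted p = 0.0116), the excess on which its list rests. It was 1.99 in DMSO (exact adjusted p = 0.134) and 0.896 in SB (exact adjusted p = 0.836).

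A second place near Lef1, upstream of the gene, was named by no list. It was picked after its values were seen, as the bin outside the listed regions with the smallest p between Activin and SB. This 200 bp bin at chr3:130805201-130805400, 8.09 kb before the gene start and outside coding genes, held 14 Activin, 7 DMSO and 0 SB tags, and its inputs held 3, 2 and 3 tags. With the SB library taken at 3 tags in place of 0, Activin was 3.46-fold higher. That value takes the 14 Activin tags as exact, so it is not a lower limit of the ratio. The exact adjusted p over 115852 bins was 0.0877. It was 0.0220 when only bins of at least 20 tags were tested, 0.0186 with repeated tags counted, 0.0467 in bins of 400 bp and 0.2 with scaling by GC content. The 300 bases of the listed region (mm9, chr3:130939654-130939953) and the 200 bases of the unlisted bin are shown to set both Lef1 places side by side, on the plus strand and with CAGAC in capitals.
Listed site past the Lef1 end: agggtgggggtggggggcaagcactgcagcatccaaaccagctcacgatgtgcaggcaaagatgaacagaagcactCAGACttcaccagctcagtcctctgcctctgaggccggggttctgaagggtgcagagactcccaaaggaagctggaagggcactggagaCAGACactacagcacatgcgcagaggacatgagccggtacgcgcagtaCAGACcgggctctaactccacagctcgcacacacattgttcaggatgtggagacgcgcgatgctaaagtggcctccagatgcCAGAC
Unlisted bin before the Lef1 start: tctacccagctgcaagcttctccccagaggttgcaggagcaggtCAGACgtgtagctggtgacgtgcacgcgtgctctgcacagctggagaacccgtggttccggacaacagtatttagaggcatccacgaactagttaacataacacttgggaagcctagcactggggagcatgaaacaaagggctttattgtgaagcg
The listed stretch held 4 copies of CAGAC and the bin held 1, and neither held the Foxh1 word or either Tcf/Lef word.

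Tcf7 was the only gene of the 8 with a position in the SB list. The gene lies at chr11:52065873-52096681 on the minus strand, and the region at chr11:52062430-52063827 had its highest pileup 3.42 kb past the gene end, outside coding genes. The SB list gave the region 19 tags. Its nearest coding start was that of Skp1a, 17.0 kb away, and the Tcf7 start was 34.2 kb away. The ChIP libraries held 20 Activin, 21 DMSO and 22 SB tags, and the inputs held 15, 19 and 14 tags. Over the whole region no pair of ChIP libraries was called, also not under the alternatives. With repeated tags counted, a 200 bp bin inside it, picked because it was called, held 8 Activin, 0 DMSO and 10 SB tags (SB against DMSO, exact adjusted p = 0.0390). SB over DMSO was 1.30 (0.684 to 2.49, exact adjusted p = 0.629), and Activin over SB was 0.673 (0.349 to 1.29, exact adjusted p = 0.402). SB ChIP over input was 1.97 (0.964 to 4.16, exact adjusted p = 0.0746), and 2.16 with repeated tags counted (exact adjusted p = 0.0263). This is the excess on which the SB list rests.

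**Figure D3:**
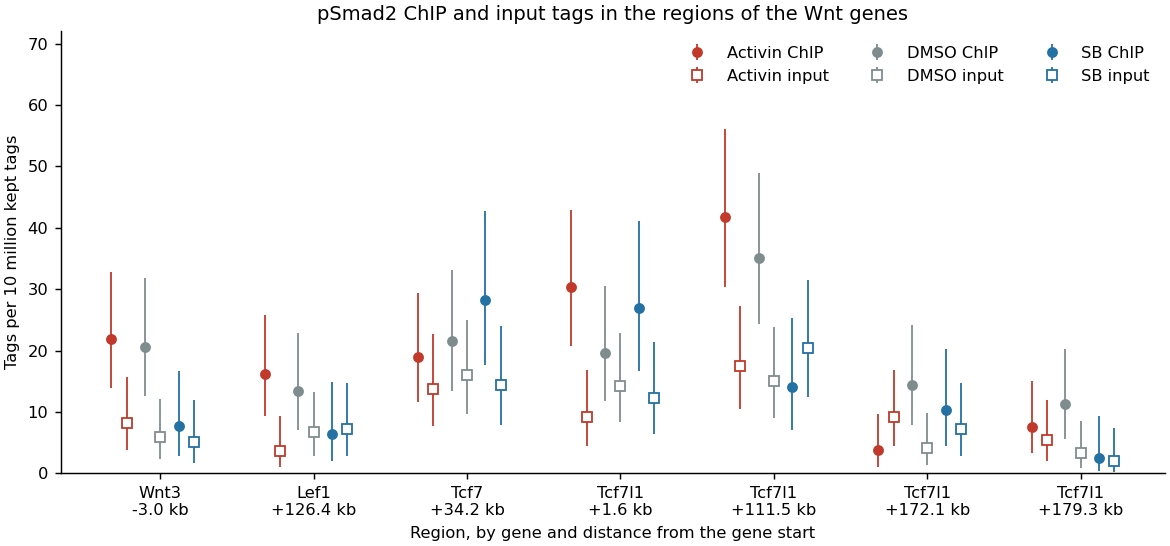
Scaled tags (per 10000000 kept tags) in the 7 regions of the Wnt genes, labelled by gene and distance from the gene start, with filled circles for ChIP, open squares for input, colors for the treatments and lines for the 95% interval of counting error. At the Wnt3 region and the Tcf7l1 region at +111.5 kb the SB ChIP (7.69 and 14.1) lies near or under its input (5.11 and 20.4), with Activin and DMSO above.

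The 7 regions were compared in all 3 pairs of ChIP libraries. None was called between Activin and DMSO, where 9.67% of all regions were, and none between SB and DMSO, where 8.61% were. The median of the 7 ratios was 1.06 for Activin over DMSO, 0.479 for SB over DMSO and 2.52 for Activin over SB, beside 0.802, 0.917 and 0.790 over all regions. 6 of the 7 regions were named by the Activin or DMSO list and not by the SB list, so the direction of the medians against SB follows in part from how regions were chosen. In the exact binomial test without adjustment, 1 of the 7 had p under 0.05 for Activin against DMSO, 3 for SB against DMSO and 2 for Activin against SB. The shares of all regions under this unadjusted threshold are not given here, so no excess can be read from these counts. ChIP above input was called for 4 of the 7 regions in Activin, 4 in DMSO and 0 in SB, where 39.8%, 56.1% and 40.1% of all regions were called. The lists were called against the same inputs, and 1 of the 7 regions came from the SB list, so these counts largely restate which list named each region. With repeated tags counted, 26.3% (Activin against DMSO), 24.7% (SB against DMSO) and 26.5% (Activin against SB) of all regions were called between ChIP libraries, and with scaling by GC content 9.71%, 4.2% and 9.43%. In SB, 2 of the 7 regions had an unadjusted p under 0.05 against input, also without a share over all regions beside it. The 7 regions were of ordinary height. Their median pileup was 10.3 scaled tags against 11.3 over all regions, whose upper quartile (14.4) was passed by the Wnt3 region (17.1) and the intronic Tcf7l1 region (16.1).

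**Figure D4:**
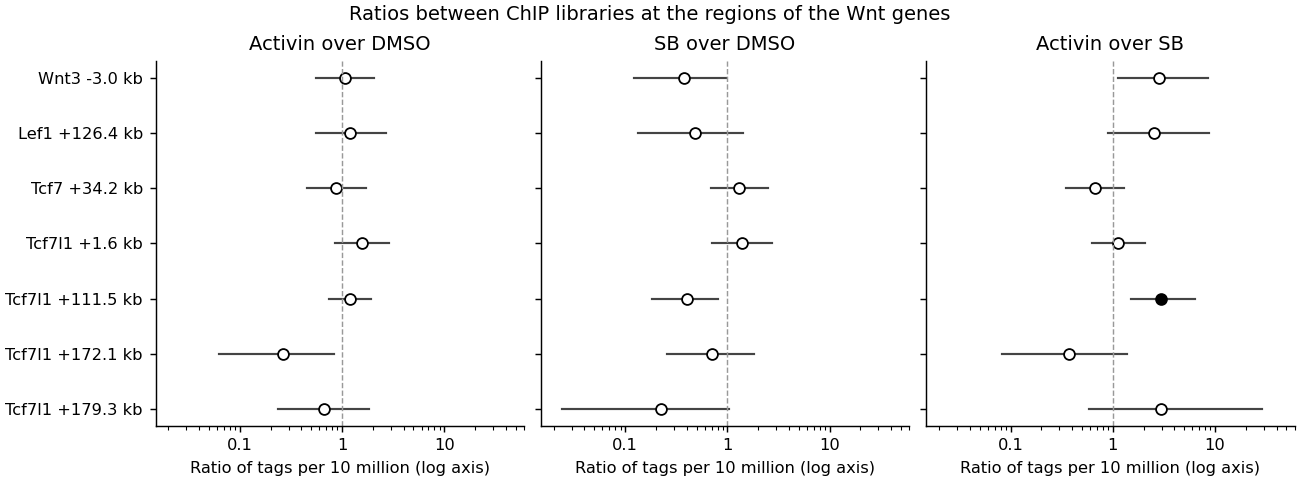
Ratio of scaled tags between pairs of ChIP libraries at the 7 regions (log axis), with 95% intervals of counting error and a dashed line at 1; the filled point is the region called at an adjusted p under 0.05. The called point is the Tcf7l1 region at +111.5 kb, with Activin over SB at 2.96.

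CAGAC stood in the 300 central bases of 3 of the 7 regions, beside 57.3% of all regions, and AATNNACA in 1 of 7, beside 17.1%. No region of the 7 held CTTTGAT (3.68% of all regions) or CTTTGAA (5.0%). All words were searched on both strands.

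Sp5 and Dkk1, both short genes, showed no pSmad2 accumulation that was detectable at this depth. Sp5 lies at chr2:70312980-70315786 on the plus strand and Dkk1 at chr19:30620353-30624155 on the minus strand. Neither window held a 200 bp bin with 12 tags in the 3 ChIP libraries together, and the fullest bins held 10 tags at Sp5 and 7 at Dkk1. Within 1 kb of the Sp5 start there were 13 Activin, 7 DMSO and 18 SB ChIP tags, against 11, 16 and 13 input tags. The count was highest in SB, and SB over DMSO was 3.20 (1.28 to 9.07, exact adjusted p = 0.224). With repeated tags counted it was 23 against 7 tags (4.34-fold, exact adjusted p = 0.0184, where 3.19% of coding starts were called), and with scaling by GC content 2.58 (exact adjusted p = 0.734). Within 1 kb of the Dkk1 start there were 14, 6 and 14 ChIP tags, against 11, 15 and 11 input tags. For both genes the DMSO library was the lowest of the 3. DMSO over input was 0.537 at Sp5 (0.187 to 1.38) and 0.491 at Dkk1 (0.156 to 1.34), and both intervals held 1.

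Axin2 and Nkd1 likewise had no listed region. Axin2 lies at chr11:108781663-108812097 and Nkd1 at chr8:91045243-91118786, both on the plus strand. Around the Axin2 start the ChIP libraries held 13 Activin, 7 DMSO and 3 SB tags, and the inputs held 7, 6 and 14. The order followed Activin, DMSO and SB, but Activin over SB was 3.21 (0.882 to 17.6, exact adjusted p = 0.369). The fullest Axin2 bin, 10.6 kb before the gene, held 10, 2 and 1 ChIP tags against 0, 1 and 4 input tags (Activin against SB, exact adjusted p = 0.499). Around the Nkd1 start the ChIP libraries held 18, 14 and 15 tags and the inputs 19, 32 and 22. With repeated tags counted, some Nkd1 bins of 200 bp were called, and they are given here because of that call. A bin 50.1 kb into the gene held 10 Activin, 0 DMSO and 15 SB tags (SB against DMSO, exact adjusted p = 0.00384). Another, 2.06 kb into the gene, held 3, 3 and 16 tags (SB against DMSO, exact adjusted p = 0.0457). With tags counted once, no Nkd1 bin was called.

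At the starts of the 4 genes with a listed region, the ChIP tags within 1 kb also stayed at the level of input. Wnt3 held 11 Activin, 23 DMSO and 18 SB tags there, against 17, 29 and 23 input tags. The count was lowest in Activin, and the upstream region lies outside this window. Tcf7l1 held 25, 23 and 32 tags against 25, 39 and 43, Lef1 17, 22 and 15 against 13, 25 and 23, and Tcf7 20, 31 and 15 against 18, 35 and 21. No start of the 8 genes was called above input in any treatment, where 2.14% (Activin), 3.26% (DMSO) and 5.15% (SB) of all coding starts were, and no start of the 8 had an unadjusted p under 0.05 against input. None was called between ChIP libraries. The background there was 0.0224% for Activin against DMSO, 0.497% for SB against DMSO and 3.91% for Activin against SB. In the exact binomial test without adjustment, 1 of the 8 starts had p under 0.05 for Activin against DMSO (Wnt3), 2 for SB against DMSO (Sp5 and Dkk1) and 2 for Activin against SB (Wnt3 and Tcf7l1). The shares of all coding starts under that unadjusted threshold are not given here, so no excess can be read. A narrow bin at the Tcf7l1 start, also picked after its values were seen, held 1 Activin, 2 DMSO and 11 SB tags against 3, 4 and 3 input tags (Activin against SB, exact adjusted p = 0.0877, and 1.0 with scaling by GC content), opposite in order to the intronic region of the same gene.

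**Figure D5:**
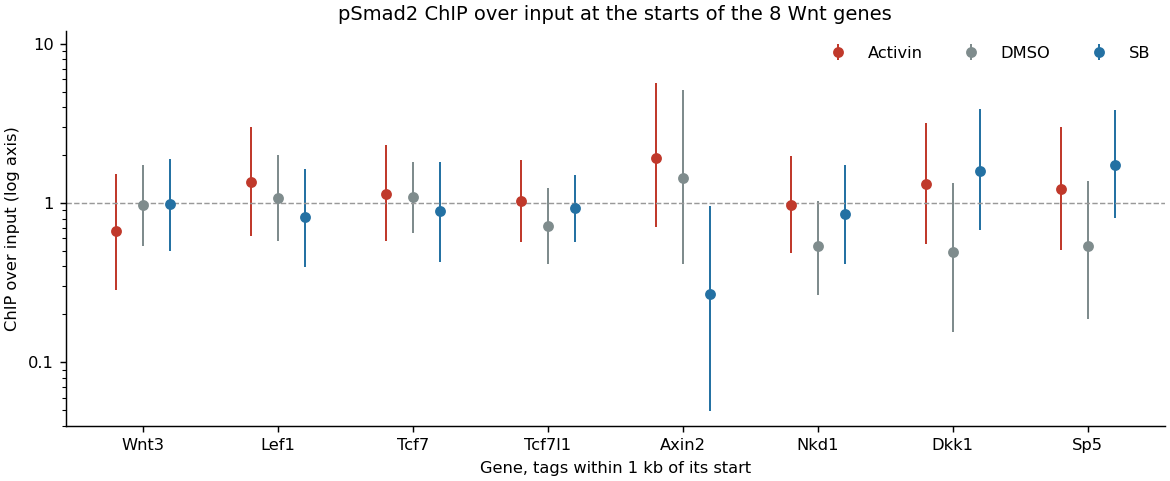
ChIP over input (log axis) from the tags within 1 kb of the start of each of the 8 Wnt genes, with colors for the treatments, 95% intervals of counting error and a dashed line at 1. All ratios lie between 0.269 and 1.92, and of the 24 intervals that of Axin2 in SB (0.0495 to 0.963) leaves out 1, on the low side.

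Across the windows, 121 bins held at least 12 ChIP tags, 107 of them outside the listed regions. None was called in any pair of libraries (7, 15 and 9 had an unadjusted exact p under 0.05 for Activin against DMSO, SB against DMSO and Activin against SB), beside 0.00173% of all such bins for Activin against DMSO, 0.0414% for SB against DMSO and 0.392% for Activin against SB. These shares are of adjusted calls, and shares of all bins under the unadjusted threshold are not given here. Over whole windows ChIP over input gave ratios from 0.747 (Dkk1 in SB) to 1.22 (Tcf7 in DMSO), and medians over all coding genes of 1.02 to 1.04. The Nkd1 window was under its input in Activin (0.814, 0.744 to 0.892), DMSO (0.775, 0.706 to 0.851) and SB (0.862, 0.782 to 0.951), as were Wnt3 in DMSO (0.876, 0.781 to 0.982) and Dkk1 in SB (0.579 to 0.958). The Tcf7l1 window was above its input in Activin (1.11, 1.04 to 1.19), DMSO (1.12, 1.05 to 1.19) and SB (1.11, 1.04 to 1.19), as was Tcf7 in Activin (1.13, 1.02 to 1.25) and DMSO (1.1 to 1.34). The other intervals against input held 1. Between treatments the Dkk1 window was at 1.31 for Activin over SB (1.02 to 1.68) and the Nkd1 window at 1.18 for SB over DMSO (1.06 to 1.31), beside medians of 0.952 and 1.03 over all genes. The other intervals between treatments held 1, and none of these intervals was adjusted for their number.

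Of the 88 other Wnt pathway genes, 43 had a listed position within 20 kb, 48.9% (38.1% to 59.8%) beside 41.5% of all coding genes. Their median window was 62.6 kb long, beside 55.4 kb for all coding genes. By role the 43 genes were 2 of 18 ligands, 2 of 6 genes of secretion and R-spondins, 8 of 15 receptors, 8 of 15 inhibitors, 12 of 14 cytoplasmic transducers, 6 of 10 nuclear factors and 5 of 10 targets. The windows of the 88 genes held 101 regions. Between Activin and DMSO, 1 was higher and 5 lower in Activin (5.94% called, beside 9.67%). Between SB and DMSO, 9 were higher and 5 lower in SB (13.9%, beside 8.61%). Between Activin and SB, 3 were higher and 16 lower in Activin (18.8%, beside 17.7%). With scaling by GC content, which moved the median of all regions by 0.14 (Activin over SB) and -0.14 (SB over DMSO) on the log2 scale, 9 were called between SB and DMSO (3 higher and 6 lower in SB) and 9 between Activin and SB (3 higher and 6 lower in Activin). The split between SB and DMSO over all regions was 639 higher and 413 lower in SB, and 186 higher and 327 lower with that scaling.

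Among the genes named by smallest p, a receptor, a ligand, a target and a nuclear factor gene had regions lower in SB. Beyond these, 1 region of the inhibitor genes and 1 of the cytoplasmic transducers were called lower in SB than in DMSO. Lgr4, a receptor for R-spondins, had a region 0.257 kb before its start (chr2:109757072-109758005) with 67 Activin, 54 DMSO and 17 SB tags against 8, 9 and 8 input tags. Activin over SB was 2.92 (1.69 to 5.30, exact adjusted p = 0.000741) and SB over DMSO 0.392 (exact adjusted p = 0.0177). All 3 lists named it, and of the 3 regions of these genes called higher in Activin than in SB it had the smallest p. Wnt3a, a ligand of the same subfamily as Wnt3, had an intronic region 8.55 kb into the gene (chr11:59095233-59096007) with 31, 17 and 4 tags against 11, 3 and 9 input tags. It was named by the Activin list alone, so it had to be high in Activin, and Activin over SB was 5.74 (2.03 to 22.4, exact adjusted p = 0.00250). The target Mycn had a region 1.33 kb before its start with 49, 49 and 16 tags against 14, 21 and 9 input tags. It was named by the Activin and DMSO lists and not by the SB list. Activin over SB was 2.27 (1.27 to 4.27, exact adjusted p = 0.0271) and SB over DMSO 0.406 (exact adjusted p = 0.0254). A region 16.0 kb before Pygo2, a nuclear partner of beta-catenin, held 6, 17 and 1 tags against 5, 6 and 6 input tags. It lay nearest to the start of Flad1 and was named by the DMSO list alone, for which it had to be high. SB over DMSO was 0.0732 there (0.00175 to 0.467, exact adjusted p = 0.0181).

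Other regions had more ChIP tags in SB. Id2, a target that encodes an inhibitor of bHLH factors, had a region 2.86 kb before its start (chr12:25782676-25784226) with 28 Activin, 20 DMSO and 63 SB tags against 13, 10 and 12 input tags. It was named by the SB list alone, so it had to be high in SB. SB over DMSO was 3.92 (2.34 to 6.85, exact adjusted p = 6.91e-06), and Activin over SB was 0.329 (0.203 to 0.521, exact adjusted p = 2.87e-05). Gsk3b, the kinase of the destruction complex, had a region 0.274 kb before its start with 28, 19 and 58 tags against 16, 28 and 30 input tags, also named by the SB list alone, and SB over DMSO was 3.8 (exact adjusted p = 2.65e-05). The region in the receptor gene Fzd7, named by all 3 lists, held 117 Activin, 107 DMSO and 163 SB tags, against 46, 74 and 77 input tags. Activin held fewer tags than SB in the inputs as well, and the ratios between ChIP libraries do not take the inputs into account. SB over DMSO was 1.90 (exact adjusted p = 9.2e-05), and 1.42 with scaling by GC content (exact adjusted p = 0.0721). Activin over SB was 0.532 (exact adjusted p = 1.59e-05), and 0.712 with that scaling (exact adjusted p = 0.0516). A region 3.83 kb before Dvl2, a Dishevelled gene, held 39, 56 and 73 tags against 29, 45 and 35 input tags. It lay in Phf23 and was named by the DMSO and SB lists. Its call between Activin and SB (0.396, exact adjusted p = 0.000113) was lost with scaling by GC content (exact adjusted p = 0.140).

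Between Activin and DMSO, the called regions of smallest p were at Lrp6, Dvl1, Tnks and Csnk1a1. Lrp6, a coreceptor of Frizzled, had an intronic region with 14 Activin, 2 DMSO and 5 SB tags against 2, 7 and 5 input tags. It was named by the Activin list (Activin over DMSO 6.45, 1.48 to 58.5, exact adjusted p = 0.0494, and 0.0507 with scaling by GC content). Dvl1 (7, 23 and 13 tags, in an exon of Tas1r3, exact adjusted p = 0.0363), Tnks (1, 11 and 1 tags, exact adjusted p = 0.0376) and Csnk1a1 (7, 21 and 6 tags, exact adjusted p = 0.0486) had regions lower in Activin, each named by the DMSO list alone. The inputs held 7, 11 and 6 tags at the Dvl1 region, 3, 1 and 4 at Tnks and 3, 5 and 3 at Csnk1a1. The nearest coding start was that of Bcl2l14 for the Lrp6 region and that of Dusp4 for the Tnks region.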

How the data were processed

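Short tags of 35 bp from each E14 TG2A library (Illumina Genome Analyzer II) were deposited as alignments to mm9, by an aligner not given in the sources used here, and all were used. The 3 deposited peak lists held 1 position and a tag count per peak, called by the authors with MACS against the input of the same treatment, with nothing pooled. The listed position lay near the summit in the Activin list and at the end of the peak in the DMSO and SB lists, so peak bounds were rebuilt from the tags and overlapping peaks were joined into regions. The members and the gene lists were chosen with earlier results of these data known.

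Tags were counted once per position and strand on chromosomes 1 to 19 and X, since PCR copies are not independent, and each tag was moved 100 bp to the middle of its fragment. Libraries were scaled by their kept tags, which bound the precision of every ratio. ChIP libraries were compared by a two-sided exact binomial test and ChIP with input by a one-sided one, with Benjamini-Hochberg adjustment over all 12212 regions, all 115852 bins of 200 bp with at least 12 ChIP tags, or all 22350 coding starts. Calls had an adjusted p under 0.05. Windows of 1 kb around coding starts were added after the data were seen. Gene bounds came from an annotation of the same build, in which 8 of 8 members and 88 of 88 other Wnt genes were found. Named were all 8 members with their regions and, of the other Wnt genes, at most the 3 of smallest p per comparison and direction with a called region. Alternatives were repeated tags, other scalings, windows, bins and thresholds. Python 3.11.15, NumPy 2.4.6, SciPy 1.17.1 and pandas 2.3.3 were used. No sample was left out.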

Additional observations from a re-analysis of the deposited data

How the results depend on the processing

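No paired analysis was possible because each group had 1 library. For the same reason no library was left out. Below, counts are of features called, over all features unless stated, and the cause of each move was not tested.

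With repeated tags counted, the regions called were 3215 (Activin vs DMSO) and 3012 (SB vs DMSO) against 1181 and 1052. Of the 7 Wnt regions this called 1 for SB vs DMSO (Wnt3), 3 for Activin vs SB (Wnt3, Lef1 and Tcf7l1 at +112 kb), and 2 for SB above input. Over all 12212 regions, 3242 were called for Activin vs SB and 4883 for SB above input. Coding starts went to 176 (from 5), 714 (from 111) and 1717 (from 873) in the order Activin vs DMSO, SB vs DMSO and Activin vs SB, with 1 of the 8 genes called for SB vs DMSO (Sp5). Bins went to 1596 (from 2), 1956 (from 48) and 2736 (from 454). In the Wnt windows 291 bins were tested at this setting. For SB vs DMSO 3 were called, all higher in SB (at Nkd1 and Tcf7). For Activin vs SB 7 were called, 2 higher and 5 lower in Activin (at Lef1, Tcf7l1 and Nkd1). With scaling by GC content, 513 regions were called for SB vs DMSO and 1151 for Activin vs SB (from 2167), 7 and 91 starts, 1231 starts above input in DMSO (from 729), and 6 bins for Activin vs DMSO and 148 for Activin vs SB. Of the 7 regions, 1 was called for SB vs DMSO (Tcf7l1) and 2 for Activin vs SB (Tcf7l1 and Wnt3). In a 400 bp window, 333, 569 and 1354 regions were called, 2895 above input in Activin (from 4863), and 2 of the 7 for Activin vs SB (Tcf7l1 and Wnt3). This window was centered on the highest scaled pileup of the 3 ChIP libraries, that of Activin at both regions, which raises Activin over SB there. With tags moved 50 bp, 1 of the 7 was called for SB vs DMSO (Tcf7l1) and 2 for Activin vs SB (Tcf7l1 and Wnt3), beside 946 and 2187 of all 12212 regions. Scaling by tags outside regions called 1 of the 7 above input in SB, beside 5032 of all 12212 regions. At an adjusted p under 0.001, 22, 83 and 364 regions remained by count, and 1417, 1864 and 1813 above input, with 0 of the 7 in Activin vs SB and 0 above input in Activin and DMSO (4 each before). Bins of at least 20 tags gave 7, 119 and 683 calls. In the Wnt windows 9 such bins were tested, and 2 were called for Activin vs SB (Lef1 and Tcf7l1). Bins of 400 bp gave 7 for Activin vs DMSO and 446 for Activin vs SB. In the Wnt windows 441 such bins were tested, and 1 was called for Activin vs SB (Lef1). The totals of bins tested over the genome with repeated tags, 20 tags or 400 bp are not given here, so these counts have no share beside them.

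For the 7 regions in the 3 pairs, no ratio changed direction under any alternative run. Wnt genes with a position in any list numbered 3 within 10 kb (Lef1 was lost), 4 within 50 kb and 4 among peaks of at least 13 tags. The 1 kb windows around coding starts were chosen after the data were examined. Depth limits these results: the regions held 2 to 44 tags per ChIP library, so a ratio such as 2.84 at Wnt3 had an interval from 1.12 to 8.52. With 1 library per treatment, the spread between cultures is unknown, and treatment and library cannot be told apart.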
